A study of Mus musculus with 10 samples.

Results

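The genes described here encode granule contents and surface proteins of neutrophils, with some regulators, enzymes and other proteins inside the cell listed beside them. They were chosen by name, as the probes whose gene name in the scanner files equals one of 33 listed genes or an older alias. Of these, 32 were found on the array and 28 were bright enough to be tested, among 35527 gene names on the array and 22520 tested. They fall into 3 classes: 5 early (primary) granule genes, 8 later granule genes and 20 genes of the mature surface or of activation. The early class counts the regulator gene Gfi1, and the later class the regulator gene Cebpe. The tissue was infrarenal aorta of male C57BL/6J mice, 10 weeks old, taken 7 days after surgery. In the PPE group (5 mice), porcine pancreatic elastase at 1.5 U per mL was infused into the closed aortic segment for 5 min at 100 mmHg, which starts an abdominal aortic aneurysm. In the sham group (5 mice), saline was infused in the same way. Each array carried RNA of 1 aorta in the red dye and a universal mouse reference RNA in the green dye, so each value is a log2 ratio of aorta over reference, and a log2 fold change is the PPE mean minus the sham mean. The model is an enzyme injury of a healthy vessel, and the wall was taken whole. Per the methods, it was flushed and freed of fat. Fat cell genes still had a mean log2 ratio of 4.63 to 5.70 on sham and 3.62 to 5.14 on PPE arrays.

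Neutrophils are short-lived white cells that are made in the bone marrow and enter injured tissue from the blood. Their granules are filled in order while they mature. Promyelocytes make the contents of the early, or azurophil, granules, such as myeloperoxidase and the serine proteases. Later precursors make the contents of the specific and gelatinase granules, such as lactoferrin and lipocalin 2. Messages of the early granules are largely gone from cells in the blood, whereas calprotectin, chemotactic receptors and other products of mature cells are kept or made on activation. The factor PU.1 and the C/EBP family stand behind this order, and C/EBPε serves the later granules.

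The upstream sequences of the members are shown first. RefSeq windows (build GRCm38.p6) of 250 bases before and 50 after the gene start were held for 31 of the 33 members; Cebpe and Trem3 had none. Of 6 motifs searched on both strands, with no requirement on overlap, the core GAGGAAG, which PU.1 can bind, was in the windows of 4 of the 5 early, 3 of 7 later and 5 of 19 mature granule or surface genes, against 13.6% of 32851 windows of all genes. The core TTGCNNAA, which C/EBP proteins can bind, was in the windows of 4 of 7 later, 1 of 5 early and 6 of 19 mature genes, against 10.8% of all, and Lcn2 held both cores. The ETS core GGAAGT was in 4 of 5 early, 2 of 7 later and 10 of 19 mature windows (23.8% of all). It can share letters with GAGGAAG. The form TTGCNCAA, a subset of TTGCNNAA, was in the same number of later windows, 4 of 7. It was in 0 of 5 early and 1 of 19 mature windows (2.94% of all). The palindrome TTGCGCAA and the GFI1 motif were in no member's window (0.183% and 2.82% of all). A match of letters is a description and not a binding site. The stretches around 1 match in each of these 8 genes are shown to let the classes be compared, with the matched letters in capitals; a match on the other strand reads CTTCCTC or TTNNGCAA.
Mpo, chr11:87793544-87793583, plus strand: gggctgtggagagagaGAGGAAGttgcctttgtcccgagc
Elane, chr10:79886211-79886250, plus strand: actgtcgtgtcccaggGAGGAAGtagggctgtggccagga
Prtn3, chr10:79879556-79879595, plus strand: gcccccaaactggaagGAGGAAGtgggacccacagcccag
Ctsg, chr14:56102767-56102806, minus strand: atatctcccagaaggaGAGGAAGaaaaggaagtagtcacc
Ltf, chr9:111019201-111019240, plus strand: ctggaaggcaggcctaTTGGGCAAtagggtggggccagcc
Lcn2, chr2:32387932-32387971, minus strand: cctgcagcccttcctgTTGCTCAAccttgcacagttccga
Ngp, chr9:110419781-110419807, plus strand: atgtcaccggcagttcTTGGGCAAggc
Fcnb, chr2:28084978-28085017, minus strand: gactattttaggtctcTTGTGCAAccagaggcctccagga

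S100a8 and S100a9 lie side by side in opposite directions, and their products form the calprotectin dimer. Their whole 250 bases before the start are given since both genes were called. The match in S100a8 is to GAGGAAG, read on the other strand, and the match in S100a9 is to TTGCNNAA.
S100a8, chr3:90668821-90669070, plus strand: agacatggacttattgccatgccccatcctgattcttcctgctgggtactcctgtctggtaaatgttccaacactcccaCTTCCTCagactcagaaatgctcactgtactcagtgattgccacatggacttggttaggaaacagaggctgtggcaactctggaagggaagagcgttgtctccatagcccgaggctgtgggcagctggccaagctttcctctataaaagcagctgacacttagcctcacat
S100a9, chr3:90695722-90695971, minus strand: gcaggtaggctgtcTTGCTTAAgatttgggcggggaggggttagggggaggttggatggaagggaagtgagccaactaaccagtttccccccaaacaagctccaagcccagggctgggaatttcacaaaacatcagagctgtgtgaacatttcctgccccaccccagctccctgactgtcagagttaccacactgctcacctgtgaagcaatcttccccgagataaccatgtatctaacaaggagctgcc

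Neutrophil genes were mostly higher in the PPE aorta. At a limma adjusted p under 0.01 over all 22520 names, 18 of the 28 tested members were higher and 1 was lower, and 9 were not called. The same test called 13.8% of all names higher and 9.96% lower. The median log2 fold change of the tested members was 1.87, against 0.02 over all names. All 6 later granule genes that were tested were higher, and so were 11 of 17 genes of the mature surface or activation, whereas 1 of 5 early granule genes was. With the red channel alone, after loess and Aquantile, 4 of the 6 later genes were called, and 5 with the deposited LogRatio or series matrix. In that order, these settings called 2499, 3164 and 3167 of all 22520 names higher. Class medians of the log2 fold change were 0.96 for early, 2.16 for later and 1.87 for mature genes, and the classes were not tested against each other. The arrays of both groups did not overlap in 20 of the 28, against 25.5% of all names. These counts are a description of the genes that were bright enough: 13 of the 28 exceeded background on every PPE array but not on every sham array, and 4 of those on no sham array, so they could pass the brightness filter through the PPE group alone. Among the 13 members that were well above background on all 10 arrays, 6 were higher and 1 lower. Where only such names were fitted, 7 of the 13 members were higher, and 2424 of 15261 names. Centring arrays on their median, without loess, left 7 of the 28 higher and 0 lower. Of all 22520 names it left 408 higher and 8 lower. The red channel alone with each array set to its median left 8 higher and 0 lower. Of all names it left 582 higher and 34 lower. In whole tissue, more cells of a type and more RNA per cell cannot be told apart.

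**Figure D1:**
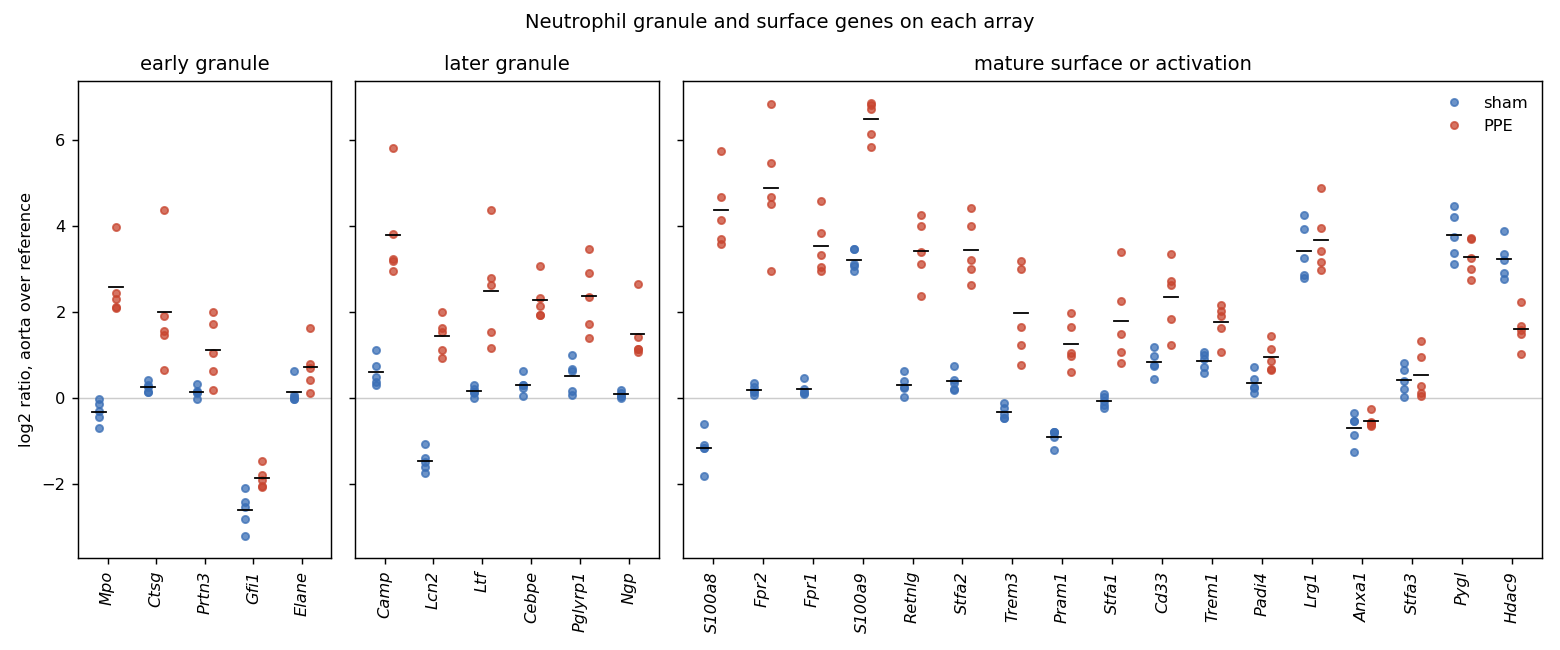
Log2 ratio of aorta over reference (vertical axis) of the 28 tested members on each array, in 3 classes ordered by log2 fold change; points are arrays (5 sham, 5 PPE) and bars are group means. The groups do not overlap in 20 of the 28, against 25.5% of all names. The PPE points lie above all sham points in Mpo, Ctsg and Gfi1 of the early class and in all 6 later granule genes. They do so too in S100a8, S100a9, Fpr1, Fpr2, Retnlg, Stfa1, Stfa2, Trem3, Pram1 and Cd33, while Hdac9 lies below.

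The early granule genes differed in size of change. Mpo encodes myeloperoxidase, which makes hypochlorous acid inside the phagosome (probe at chr11:87617840-87617899, mm9, as are all probe positions here). In order of replicate 1 to 5, Mpo read -0.69, -0.31, -0.03, -0.43 and -0.13 on the sham arrays and 2.31, 2.12, 2.44, 3.98 and 2.09 on the PPE arrays. Every PPE value was above every sham value, and the log2 fold change was 2.90 (± 0.32 SE, adjusted p = 3.99e-05 by limma), or 7.48-fold. The probe was well above background on 1 sham and 5 PPE arrays. A second Mpo probe, above background on 0 sham and 3 PPE arrays, was not tested and differed by 0.74.

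Ctsg encodes cathepsin G, a serine protease of the same granules. Ctsg read 0.42, 0.14, 0.25, 0.30 and 0.14 on the sham arrays and 1.91, 1.57, 1.47, 4.37 and 0.66 on the PPE arrays. The groups did not overlap, but PPE 4 stood well above the other PPE arrays and the difference of 1.74 (± 0.54 SE, adjusted p = 0.0248 by limma) was not called. Without PPE 4 it was smaller, 1.15, and passed (limma adjusted p = 0.00236); without PPE 5 it was 2.08 (limma adjusted p = 0.00782). Prtn3 and Elane encode proteinase 3 and neutrophil elastase, which share the granule and lie 7.03 kb apart by their probes. Prtn3 read 0.34, 0.17, 0.12, 0.15 and -0.02 on the sham arrays and 1.71, 1.05, 0.62, 1.99 and 0.19 on the PPE arrays. Elane read -0.02, 0.04, -0.02, 0.64 and 0.07 on the sham arrays and 0.71, 0.80, 0.42, 1.62 and 0.11 on the PPE arrays. PPE 5 fell within the sham range in Prtn3, and in Elane PPE 3 and PPE 5 lay below sham 4. Neither passed, at log2 fold changes of 0.96 and 0.59 (limma adjusted p = 0.0249 and 0.0906). Without PPE 5, Prtn3 passed (1.19, limma adjusted p = 0.00307). Gfi1 encodes a repressor of transcription that neutrophil precursors need. Gfi1 read -3.21, -2.51, -2.40, -2.81 and -2.09 on the sham arrays and -2.03, -2.07, -1.91, -1.47 and -1.79 on the PPE arrays. All PPE values were above all sham values, and the log2 fold change of 0.75 stood just short of the threshold (limma adjusted p = 0.0117). Gfi1 passed in 7 other settings, slide and scan day as blocks among them, and without sham 5 (0.88, limma adjusted p = 0.0039).

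The 6 later granule genes that were tested were higher, at log2 fold changes from 1.39 to 3.18. Cebpe encodes C/EBPε, the factor that late granulopoiesis depends on. Cebpe read 0.23, 0.04, 0.30, 0.63 and 0.31 on the sham arrays and 2.33, 2.15, 1.92, 3.06 and 1.94 on the PPE arrays. The difference was 1.98 (± 0.21 SE, adjusted p = 2.8e-05 by limma). Camp encodes the precursor of the antimicrobial peptide CRAMP. Camp read 0.38, 0.50, 1.11, 0.75 and 0.30 on the sham arrays and 3.23, 2.94, 3.80, 5.80 and 3.18 on the PPE arrays. PPE 4 was the highest by far and the other PPE arrays still lay above every sham array. The log2 fold change was 3.18 (± 0.46 SE, adjusted p = 0.000259 by limma). Its other probe differed by 2.61. Lcn2 encodes lipocalin 2, which withholds iron from bacteria by binding their siderophores. Lcn2 read -1.74, -1.48, -1.59, -1.40 and -1.05 on the sham arrays and 1.52, 2.01, 0.93, 1.64 and 1.11 on the PPE arrays. This was the member with the smallest standard error of the class, at 2.89 (± 0.20 SE, adjusted p = 1.77e-06 by limma). Cells other than neutrophils also make it in inflammation. Ltf encodes lactoferrin, an iron-binding protein of the specific granules. Ltf read 0.30, 0.15, 0.22, 0.11 and 0.01 on the sham arrays and 2.63, 1.54, 2.78, 4.36 and 1.15 on the PPE arrays. The spread among PPE arrays was wide, and the difference was 2.34 (± 0.48 SE, adjusted p = 0.00267 by limma). The call of Ltf was lost in 3 other settings, the red channel alone among them.

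Ngp encodes neutrophilic granule protein, a relative of the cathelicidins. Ngp read 0.06, 0.13, 0.20, 0.002 and 0.06 on the sham arrays and 1.15, 1.07, 1.13, 2.66 and 1.41 on the PPE arrays. The log2 fold change was 1.39 (limma adjusted p = 0.00164). It was above background on no sham array. In the red channel after loess and Aquantile, it was at least 3.08-fold higher in PPE. For each sham array, the value used was the higher of the gene's own signal and the lowest signal called above background. Such a bound is of red channel values that loess and Aquantile adjust with the use of both channels. It is open to dye bias with no dye swap, and is not a bound on the fold of the ratios, which was 2.63 for Ngp. The call was lost with slide as a block (1.46, limma adjusted p = 0.0133), which left 5 of the 6 later genes called, and with the red channel alone (1.76, limma adjusted p = 0.0299). Pglyrp1 encodes a peptidoglycan recognition protein that kills bacteria. Pglyrp1 read 0.68, 0.07, 1.0, 0.62 and 0.16 on the sham arrays and 3.47, 2.90, 1.73, 2.35 and 1.40 on the PPE arrays. All PPE values lay above all sham values (log2 fold change 1.86, limma adjusted p = 0.00172). The call of Pglyrp1 was lost in 4 other settings, the deposited LogRatio and the series matrix among them. Camp, Ngp and Ltf lie in that order along chromosome 9, with 574 kb and 619 kb between their probes. Olfm4, the gene of olfactomedin 4, was well above background on none of the 10 arrays. Fcnb, the gene of ficolin B, was above background on 1 PPE array, so neither was tested.

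In the class of mature surface and activation genes, S100a8 had the largest log2 fold change in the reported fit, though with the red channel alone S100a9 had the larger one (6.42 against 5.48). S100a8 (probe at chr3:90473778-90473837) encodes 1 subunit of this calcium- and metal-binding protein, which makes up much of the neutrophil cytosol. S100a8 read -1.80, -1.16, -1.08, -1.15 and -0.60 on the sham arrays and 4.66, 3.57, 4.14, 5.75 and 3.70 on the PPE arrays. The groups lay far apart, with a log2 fold change of 5.53 (± 0.38 SE, adjusted p = 1.46e-06 by limma), or 46.0-fold. Within slide 1 (sham 1, PPE 1 and PPE 2) the difference was 5.92. Within slide 2 (sham 2, sham 3, PPE 3 and PPE 4) it was 6.07. S100a9 (probe at chr3:90496573-90496632) encodes the partner subunit. S100a9 read 3.47, 3.07, 2.96, 3.47 and 3.11 on the sham arrays and 6.86, 6.80, 5.84, 6.14 and 6.72 on the PPE arrays. Its difference was 3.26 (± 0.21 SE, adjusted p = 1.04e-06 by limma), or 9.55-fold.

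The size of the S100a9 change depended on the green channel. That channel holds the same reference RNA on every array, yet its S100a9 signal minus background was 22.3 to 81.6 on the sham arrays and 321.5 to 3687.1 on the PPE arrays. The green signal of S100a9 was between 0.571% and 6.8% of the red signal on PPE arrays. Taken from the green channel alone, S100a9 differed by 3.61 (limma adjusted p = 0.000140) and was the only one of the 28 tested members called, against 0.298% of all names called higher in green. The groups' green values also did not overlap in Lcn2 (2917.5 to 3760.8 in sham, 3921.3 to 9953.4 in PPE). For S100a8 the green medians were 904.5 in sham and 882.8 in PPE. With the red channel alone the log2 fold change of S100a9 was 6.42, and with the deposited LogRatio it was 1.10, so its direction held while its size did not. The cause of the green difference was not tested.

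**Figure D2:**
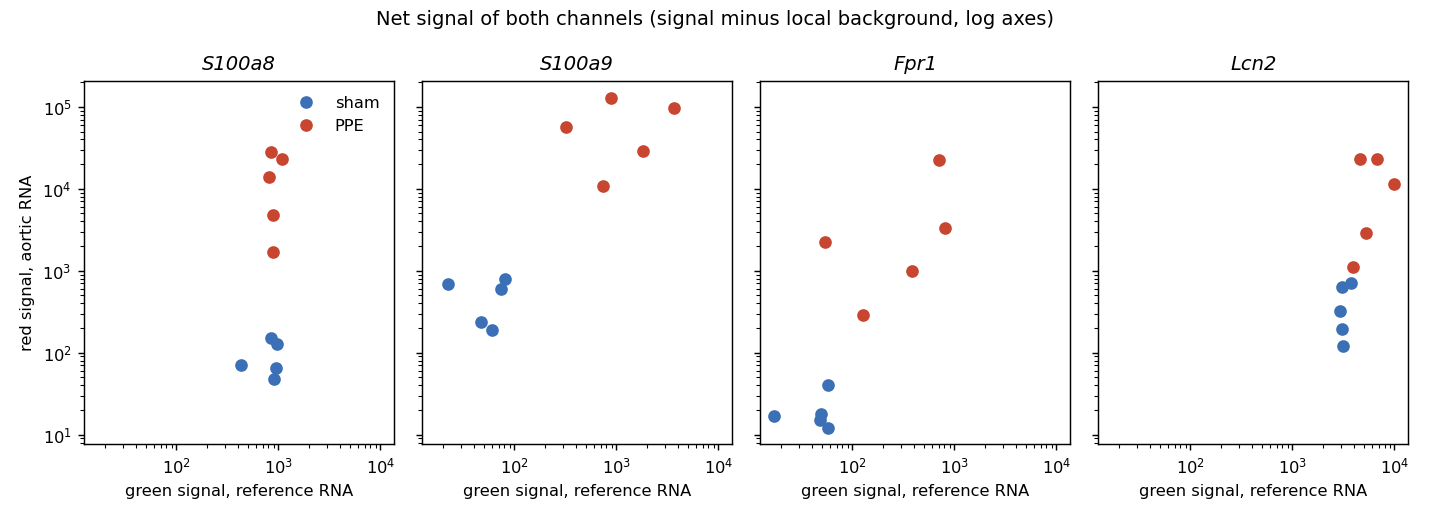
Signal minus local background of the aortic RNA (red channel, vertical log axis) against that of the reference RNA (green channel, horizontal log axis) for S100a8, S100a9, Fpr1 and Lcn2; each point is an array (5 sham, 5 PPE). S100a8 moves up with little change of green signal, while S100a9 moves up and to the right, from green values of 22.3 to 81.6 in sham to 321.5 to 3687.1 in PPE.

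The formyl peptide receptors guide neutrophils to bacteria and damaged cells. Fpr2 read 0.14, 0.25, 0.07, 0.17 and 0.36 on the sham arrays and 6.83, 4.51, 4.67, 5.46 and 2.95 on the PPE arrays. It was above background on no sham array and was at least 28.0-fold higher in the red channel, while the ratios gave a log2 fold change of 4.69 (± 0.54 SE, adjusted p = 5.14e-05 by limma), or 25.7-fold. Fpr1 read 0.11, 0.21, 0.10, 0.48 and 0.15 on the sham arrays and 4.57, 3.83, 2.94, 3.32 and 3.05 on the PPE arrays. The log2 fold change of Fpr1 was 3.33 (± 0.27 SE, adjusted p = 4.34e-06 by limma), and its green signal was 17.2 to 57.7 in sham and 54.5 to 801.4 in PPE. The probes of both genes lie 16.9 kb apart on chromosome 17.

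Retnlg encodes resistin-like gamma, a secreted protein of mouse granulocytes. Retnlg read 0.62, 0.02, 0.25, 0.25 and 0.41 on the sham arrays and 4.0, 3.39, 3.11, 4.25 and 2.38 on the PPE arrays. No PPE value came near the sham range, and the difference was 3.11 (± 0.30 SE, adjusted p = 1.48e-05 by limma). TREM receptors amplify the inflammatory response of myeloid cells. Trem3 read -0.37, -0.46, -0.12, -0.46 and -0.22 on the sham arrays and 3.17, 1.23, 1.65, 3.01 and 0.78 on the PPE arrays. Trem3 was above background on no sham array and was at least 3.71-fold higher in the red channel (log2 fold change 2.29, limma adjusted p = 0.00118). Its neighbour Trem1, 12.1 kb away, differed by 0.90 (limma adjusted p = 0.00381), with 0.59 to 1.07 in sham and 1.06 to 2.17 in PPE. It was the only called member whose groups overlapped, and its call was lost in 9 other settings, 4 of which left out a single array (0.87 without sham 1, 0.84 without sham 3, 0.86 without PPE 3 and 0.84 without PPE 4).

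The stefins are cysteine protease inhibitors that form a cluster on mouse chromosome 16. Stfa2 read 0.19, 0.43, 0.22, 0.36 and 0.74 on the sham arrays and 4.0, 3.21, 3.0, 4.40 and 2.62 on the PPE arrays. The difference was 3.06 (± 0.30 SE, adjusted p = 1.59e-05 by limma). Stfa1 ranged from -0.24 to 0.09 in sham and 0.81 to 3.39 in PPE; it was above background on no sham array and at least 2.55-fold higher in the red channel (log2 fold change 1.87, limma adjusted p = 0.00357), a call that was lost without PPE 1 (1.76, limma adjusted p = 0.0106) and with slide as a block (limma adjusted p = 0.0125). Stfa3 ranged from 0.03 to 0.83 in sham and 0.06 to 1.32 in PPE and was not called (log2 fold change 0.13, limma adjusted p = 0.75). Of 2 related genes from the list of other neutrophil genes, BC100530 was higher by 2.40 on the log2 scale, and Stfa2l1, above background on no sham array, was at least 11.8-fold higher in the red channel. Members of this family may share signal: the files list a transcript of Stfa2 among the targets of the Stfa2l1 probe, and that of another locus for the Stfa1 probe. The closest 30 bases of 2 pairs of family probes, as the files give them, show how near they are, with differing bases in capitals. Stfa3 and BC100530 share 27 of these 30 bases, Stfa1 and Stfa2 share 25.
Stfa3: actAacaaaaccaagACtgatgagctgacc
BC100530: actGacaaaaccaagGAtgatgagctgacc
Stfa1: caGtgGaaagagatTcAgccatGaataaag
Stfa2: caTtgTaaagagatGcGgccatCaataaag

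Pram1, an adaptor of myeloid signalling, ranged from -1.20 to -0.78 in sham and 0.60 to 1.97 in PPE (log2 fold change 2.15, limma adjusted p = 3.19e-05). Cd33 encodes a sialic acid-binding receptor, and it ranged from 0.45 to 1.19 in sham and 1.23 to 3.35 in PPE (log2 fold change 1.52, limma adjusted p = 0.00435). The call of Cd33 was lost in 9 other settings, among them leaving out sham 2 (1.43), sham 3 (1.50), sham 4 (1.56), PPE 2 (1.45) or PPE 4 (1.43), and its log2 fold change was 0.77 with the series matrix. Cd177, a neutrophil surface protein that binds proteinase 3, was above background on 0 sham and 4 PPE arrays and was not tested, although its groups did not overlap (0.27 to 1.10 in PPE, -0.05 to 0.18 in sham). Mgam, the gene of maltase-glucoamylase, was above background on 1 PPE array. Ly6g, the surface antigen by which mouse neutrophils are usually recognised, has no probe of that gene name. A probe named by a transcript only is described in the files as Ly6g; it was found by that description after values had been seen and is not among the 32. It read 1.47, 0.75, 1.35, 0.73 and 1.59 on the sham arrays and 4.38, 3.72, 3.23, 3.37 and 1.95 on the PPE arrays, a difference of 2.15 (± 0.38 SE, adjusted p = 0.000955 by limma).

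The other 6 tested members of the class were lower or not called, Stfa3 among them. Hdac9 encodes a histone deacetylase that muscle and other tissues also express, and it was lower, ranging from 2.75 to 3.88 in sham and 1.03 to 2.23 in PPE. The log2 fold change was -1.62 (± 0.24 SE, adjusted p = 0.000323 by limma). A second Hdac9 probe, above background on 1 sham and 0 PPE arrays, was not tested and differed by -0.11. Smooth muscle markers were lower on the same arrays, 6 of 8 by the same test, and their part in the Hdac9 value was not tested. The median centring of each array ended the call of Hdac9 (-1.05), and so did the red channel alone with each array set to its median (-1.20). Anxa1 encodes annexin A1, which limits leukocyte entry and is made by many cells. Anxa1 read -0.53, -0.53, -1.24, -0.86 and -0.34 on the sham arrays and -0.55, -0.24, -0.61, -0.57 and -0.64 on the PPE arrays. The groups overlapped (log2 fold change 0.18, limma adjusted p = 0.466). The other Anxa1 probe differed by 0.40 (limma adjusted p = 0.0389 over all tested probes). Pygl encodes the glycogen phosphorylase of liver and leukocytes. Pygl read 4.46, 3.36, 3.75, 4.19 and 3.12 on the sham arrays and 3.70, 3.01, 3.25, 3.71 and 2.74 on the PPE arrays. The difference of -0.50 was not called. Lrg1 encodes a secreted glycoprotein that endothelium also makes. Lrg1 read 3.92, 2.78, 2.87, 4.24 and 3.25 on the sham arrays and 3.96, 4.89, 2.97, 3.16 and 3.42 on the PPE arrays. Its log2 fold change was 0.27 (limma adjusted p = 0.647), but 1.35 with the red channel alone (limma adjusted p = 0.00195); its green medians were 777.7 in sham and 1678.6 in PPE. Padi4 encodes the enzyme that citrullinates histones when chromatin is cast out as extracellular traps. Padi4 read 0.12, 0.25, 0.24, 0.73 and 0.45 on the sham arrays and 1.45, 0.65, 0.86, 1.13 and 0.68 on the PPE arrays. Sham 4 overlapped with the PPE arrays, and the difference of 0.59 was not called (limma adjusted p = 0.0199). The other Padi4 probe differed by 0.30 (limma adjusted p = 0.255 over all tested probes).

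The members did not reach their highest level on the same PPE mouse. PPE 4 held the highest value of all 5 early granule genes and of 4 of the 6 tested later granule genes, and of 6 of the 17 mature genes. PPE 1 held the highest value of 0 early, 1 later and 7 mature genes. Over all names, PPE 4 was highest in 13.6% and PPE 1 in 25.6%. The mean log2 ratio of the early genes was 2.10 on PPE 4 and 0.25 to 0.92 on the other PPE arrays, against -0.63 to -0.41 on sham arrays. The later genes averaged 3.31 on PPE 4 and 1.70 to 2.39 on the others. The mature genes averaged 3.21 on PPE 1 and 3.08 on PPE 4. PPE 5 was the lowest in 17 of the 28 members, and in 38.3% of all names; on that array 45.8% of red spots exceeded background, fewer than on any other PPE array.

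The green channel of PPE 4 stood out in the same genes. The Mpo green signal was 617.1 on PPE 4 and 69.1 to 127.8 on the other PPE arrays. For Ngp it was 352.2 against 2.9 to 55.2, and for Ltf it was 306.3 against 9.2 to 64.2. Of the 28 members, 23 had their highest green signal among PPE arrays on PPE 4 (82.1%), against 19.9% of all names. Platelet markers averaged 2.14 on PPE 4, against 0.01 to 1.20 on the other PPE arrays and 0.09 to 1.99 on the sham arrays. The part of these in the ratios was not tested.

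**Figure D3:**
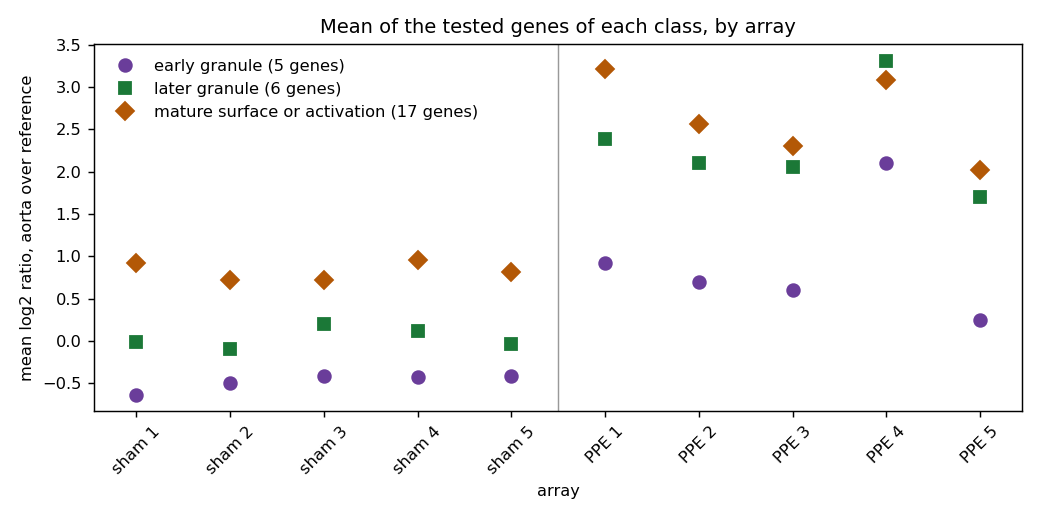
Mean log2 ratio of aorta over reference (vertical axis) of the tested genes of each class (5 early, 6 later, 17 mature) on each array (horizontal axis); each point is a mean over genes of 1 array. Early genes reach 2.10 on PPE 4 and 0.25 to 0.92 on the other PPE arrays, whereas mature genes read 3.21 on PPE 1 and 3.08 on PPE 4.

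Genes that call neutrophils into tissue were higher too. Of 14 chemoattractants and their receptors, 12 were tested and 11 were higher (median log2 fold change 2.71). Cxcl5, a ligand of CXCR2, was above background on no sham array and was at least 96.1-fold higher in the red channel. Its mean red log2 signal was 7.23 in sham and 13.85 in PPE. Cxcr2, the receptor for these ligands on neutrophils, was higher by 3.49 on the log2 scale, Cxcl12, which holds cells in the marrow, by 3.35 and Cxcl1 by 3.12. Ppbp was not called. Cxcr1 and Cxcl15 were not tested. Of 9 granulopoietic growth factors and receptors, 6 were tested and 4 were higher. These were the receptor genes Csf2rb2 (3.33), Csf2rb (3.16), Il3ra (2.24) and Il17ra (1.28). The receptor gene Csf3r, for the main growth factor of neutrophils, differed by -0.08 (limma adjusted p = 0.674). Its only probe was bright in both groups, with a mean red log2 signal of 15.66 in sham and 15.59 in PPE. Whether that probe reads Csf3r alone was not tested. The ligand gene Csf3 was above background on 2 PPE arrays and not tested.

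Adhesion genes let neutrophils roll and stop on endothelium. Of 13, 11 were tested and 8 were higher (median 2.12), among them Selplg (3.16), Itgb2 (2.95) and Vcam1 (2.17). Itgam, which encodes the other chain of the Mac-1 integrin, differed by 0.44 (limma adjusted p = 0.0884) on the brightest of its 3 tested probes. The mean red log2 signal of that probe was 13.43 in sham and 13.03 in PPE. Values of the other Itgam probes are not given here. All 6 genes of the phagocyte oxidase, which makes superoxide, were higher (median 2.96), with Ncf4 at 3.30, Ncf1 at 3.01 and Cybb at 2.91. Of 25 other genes that neutrophils express, 23 were higher and G0s2 was lower (-1.13). Among them were Il1b (5.80), Clec4d (5.74) and Irg1 (5.33), and Slfn4, above background on no sham array, was at least 23.3-fold higher in the red channel. Mmp8, the neutrophil collagenase, was above background on no sham array and at least 4.07-fold higher in the red channel. Of 8 listed receptors of calprotectin and other genes of myeloid signalling, 7 were tested and 4 were higher. These were Cd14 (3.30), Tyrobp (2.87), Tlr2 (2.83) and Ly96 (1.62). The receptor genes Tlr4 (0.24) and Bsg (-0.38) were not called, Cd36 was lower (-1.17), and Ager was not tested. Over all names, 13.8% were higher by the same test. Many of these genes are expressed by monocytes and macrophages as well.

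**Figure D4:**
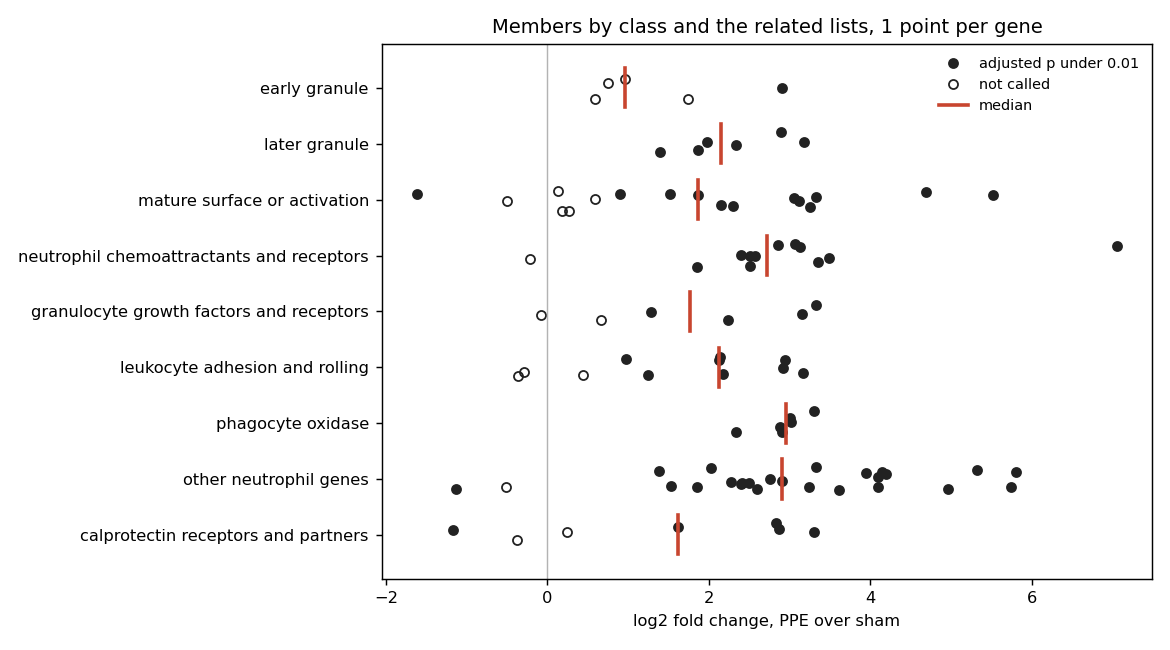
Log2 fold change, PPE over sham (horizontal axis), of the tested genes in the 3 member classes and the 6 related lists (vertical axis, with points spread at random within a row); filled points passed a limma adjusted p under 0.01, open points did not, and the red line is the median of the row. Early granule genes have a median of 0.96 with 1 filled point, while all 6 genes of the phagocyte oxidase are filled.

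Other cell types moved on the same arrays. Of 12 monocyte and macrophage markers, 7 were higher, with a mean log2 ratio of 1.66 to 2.34 on sham and 3.15 to 4.17 on PPE arrays. T cell markers were higher in 5 of 8 (-1.01 to 0.19 in sham, 0.85 to 1.96 in PPE). Of the 6 tested eosinophil genes, 2 were higher, and Epx, the eosinophil peroxidase that is closest to Mpo in function, was above background on no array. Hdc, which neutrophils also express, was the only one of 7 mast cell genes that was higher. Red cell genes, a sign of blood left in the vessel, were lower in 3 of 5 (3.13 to 4.07 in sham, 2.04 to 3.05 in PPE), and none of 7 platelet, 4 B cell or 8 endothelial genes was called. Of 7 fat cell genes, Ucp1 was called lower and the others were not called (list mean 4.63 to 5.70 in sham, 3.62 to 5.14 in PPE). The part of these cells in the members' change was not tested. Smooth muscle markers, well above background on at least 9 of 10 arrays each, were thus present in all samples; per array, 37.6% to 65.8% of red spots exceeded background. All 19 called members kept their direction within slide 1 and within slide 2, which hold arrays of both groups. For the 18 called members whose groups did not overlap, this could not come out otherwise and is no test of a slide effect. The other 3 slides hold 1 array each. The arrays of slide 1 were scanned on another day than all others, so slide and scan day are not independent settings.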

How the data were processed

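Gene expression was measured in 10 aortas on 2-colour Agilent 60-mer arrays, with no dye swap. Spots were quantified by the authors in Agilent Feature Extraction, version 10.7.3.1. Per the methods, arrays were excluded for poor hybridization and by clustering. The deposited signal of each spot is a linear intensity, the LogRatio deposited beside it is in log10 units (red over green), and the authors' series matrix holds log2 ratios. Groups came from the labels.

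Mean signals and median local backgrounds were corrected by normexp (offset 50) and loess in R 4.3.3 with limma 3.58.1. The offset draws ratios of dim probes towards 0. Control and outlier spots were left out. A probe was tested where its red signal exceeded background (the scanner software's flag) on 5 or more of 10 arrays (spot share 0.5), and a gene took its brightest tested probe. Groups were compared by limma, two-sided and unpaired, adjusted by Benjamini-Hochberg over 22520 names at 0.01, in place of the study's SAM; the fit was tested on simulated data. The red channel alone means its values after loess and Aquantile, which use both channels. Fits of the green channel, and of the red channel set to each array's median, were added after the data were seen. The members and lists were chosen with earlier results of these data known. Named were, per class, up to 7 called members by size and up to 4 others by brightness, and up to 4 called genes per list; 2 genes that met this rule are not reported here. Probe positions are on mm9; exons and UTRs were not annotated here. The number of arrays limits the precision.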

Additional observations from a re-analysis of the deposited data

Results flagged for a closer look

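Of 56 groups of 5 arrays, 4 held an array whose gap to its nearest neighbour was over 0.71 of the group's range, and chance alone gives about 1 in 20 groups. Mpo on PPE 4 read 3.98, with the next value at 2.44. Ngp on PPE 4 read 2.66, with the next at 1.41. Elane on sham 4 read 0.64, with the next at 0.07. Anxa1 on PPE 2 read -0.24, with the next at -0.55.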

How the results depend on the processing

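Of the 19 called members, Cebpe, Lcn2, Retnlg, S100a8 and Stfa2 kept their call in every setting that tested them; Cebpe and Retnlg were not tested where all 10 arrays had to be above background. No called member reversed. Median centring in place of loess moved the median of all names to 0.41. It called 408 of 22520 names higher and 8 lower, so 98.1% of all calls were higher (58.2% in the reported fit). It left 7 members higher and 0 lower (1 early, 3 later, 3 mature). The red channel alone with each array set to its median, an alternative chosen after seeing the data, shifted all names by 0.38. It called 582 of all names higher and 34 lower (94.5% of calls higher). Of the members, 8 were higher and 0 lower (0 early, 2 later, 6 mature). The cause of these shifts was not tested. With all 10 arrays required above background, 13 members were tested and 7 were higher (1 early, 1 later, 5 mature), since fewer genes were tested. Of all names, 15261 were tested so and 2424 were higher. Early granule genes called higher numbered 1 as reported, 3 with an offset of 16, 2 with the LogRatio or the series matrix (50.6% of all calls higher), 2 with slide or with scan day as a block, and 4 at an adjusted p under 0.05. Of all 22520 names, 3213 were higher with an offset of 16, 3146 with slide and 3292 with scan day as a block. The share of all names at an adjusted p under 0.05 is not given here. Leaving out 1 array at a time gave 1 to 3 early, 6 later, 9 to 11 mature and 16 to 20 members higher, and 1 lower. Of all 22520 names, these fits called 2512 to 3615 higher and 1754 to 2352 lower. Early genes called were 2 without sham 5, 2 without PPE 4 and 3 without PPE 5. Aquantile leaves ratios as they are. With the replicate number as a block, 18 members were higher and 2 lower, Pygl (-0.50, limma adjusted p = 0.00854) being new. Of all names, this block left 3022 higher and 2283 lower. The replicate numbers did not pair the samples, since deviations of same-numbered arrays correlated between -0.30 and 0.52. With the LogRatio the log2 fold change was larger for some dim genes (5.35 for Stfa1, 5.22 for Trem3, 4.72 for Mpo and 3.30 for Ngp) and smaller for others (1.47 for Ctsg and 0.77 for Cd33). Too few arrays above background left Olfm4, Fcnb, Mgam and Cd177 untested.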
